A study of Mus musculus with 10 samples.

Results

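The genes described here encode the inhibitors of cyclin-dependent kinases (CDKs) and the GADD45 proteins, and they were chosen by name: *Cdkn1a*, *Cdkn1b*, *Cdkn1c*, *Cdkn2b*, *Cdkn2c*, *Cdkn2d*, *Gadd45a*, *Gadd45b* and *Gadd45g*. All 9 have a row among the 17813 genes of the deposited microarray table that a single-gene probe set names, and each rests on 1 probe set. The arrays measured RNA of samples labelled as lung epithelial tips of mouse embryos, with 5 arrays at E17.5 and 5 at E11.5. Embryos of both stages are labelled *Id2-CreER; Rosa26R-fGFP*. For the older stage, tamoxifen was injected into the pregnant females 1 day earlier, at E16.5 (150 μg per gram), which switches on GFP in cells with active Cre. Lungs were then broken up with trypsin/EDTA and the GFP+ cells were sorted, a gate that does not separate tip progenitors from daughters formed since the injection. The E11.5 tips were dissected by hand after 5 min in dispase at 16 U/ml, and for them the sources describe neither tamoxifen nor a sort. Cre recombination is driven by the *Id2* locus, so the label is meant for cells that expressed *Id2* when tamoxifen was given, and for their later offspring. Markers of macrophages and endothelial cells were mostly higher at E17.5 too, as given below, and the purity of the sort was not tested. Stage and the way of isolation changed together and cannot be told apart. In bulk RNA, fewer cells of a type and less RNA per cell cannot be told apart either. Each value is the log2 signal of 1 probe set, and levels of different probe sets are not ranked against each other.

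The cell cycle is driven by CDKs bound to cyclins, and 2 families of small proteins hold these kinases back. The INK4 proteins bind CDK4 and CDK6 and keep them from their D-type cyclins, while the Cip/Kip proteins bind cyclin-CDK complexes more broadly, including those of CDK2. The GADD45 proteins are small stress-induced proteins that bind the kinase MAP3K4 upstream of p38 and JNK, as well as PCNA and other partners, and are known for growth arrest after DNA damage and other stress. In developing organs the CDK inhibitors are known for slowing division as cells differentiate.

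Of the 9 genes, 8 were higher at E17.5 and 1, *Cdkn1c*, was lower (limma, Benjamini-Hochberg adjusted p under 0.05 over 17813 genes). Among all genes measured, 36.9% were called higher and 31.5% lower, or 68.4% in either direction. The median log2 fold change of the 9 genes was 1.00, against 0.03 for all genes. After quantile normalisation these medians were 0.45 and -0.04. The 9 genes fell into 3 sizes of change. *Cdkn2b*, *Gadd45g*, *Gadd45b* and *Cdkn2c* rose 46.9-fold, 15.4-fold, 12.7-fold and 6.22-fold. *Cdkn1a*, *Cdkn1b*, *Gadd45a* and *Cdkn2d* rose 2.00-fold (just under 2 before rounding), 1.92-fold, 1.91-fold and 1.46-fold, and of these only *Gadd45a* still passed when the arrays were quantile normalised. *Cdkn1c* fell 2.32-fold. A rise called and of at least 2-fold was found for 4 of the 9 genes and for 24.2% of all genes, and a fall of that size for 1 of the 9 and 16.3% of all genes. Against a null of a 2-fold change, *Cdkn2b*, *Cdkn2c*, *Gadd45b* and *Gadd45g* passed as higher, as did 19.3% of all genes, and *Cdkn1c* had an adjusted p of 0.3 (limma).

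**Figure D1:**
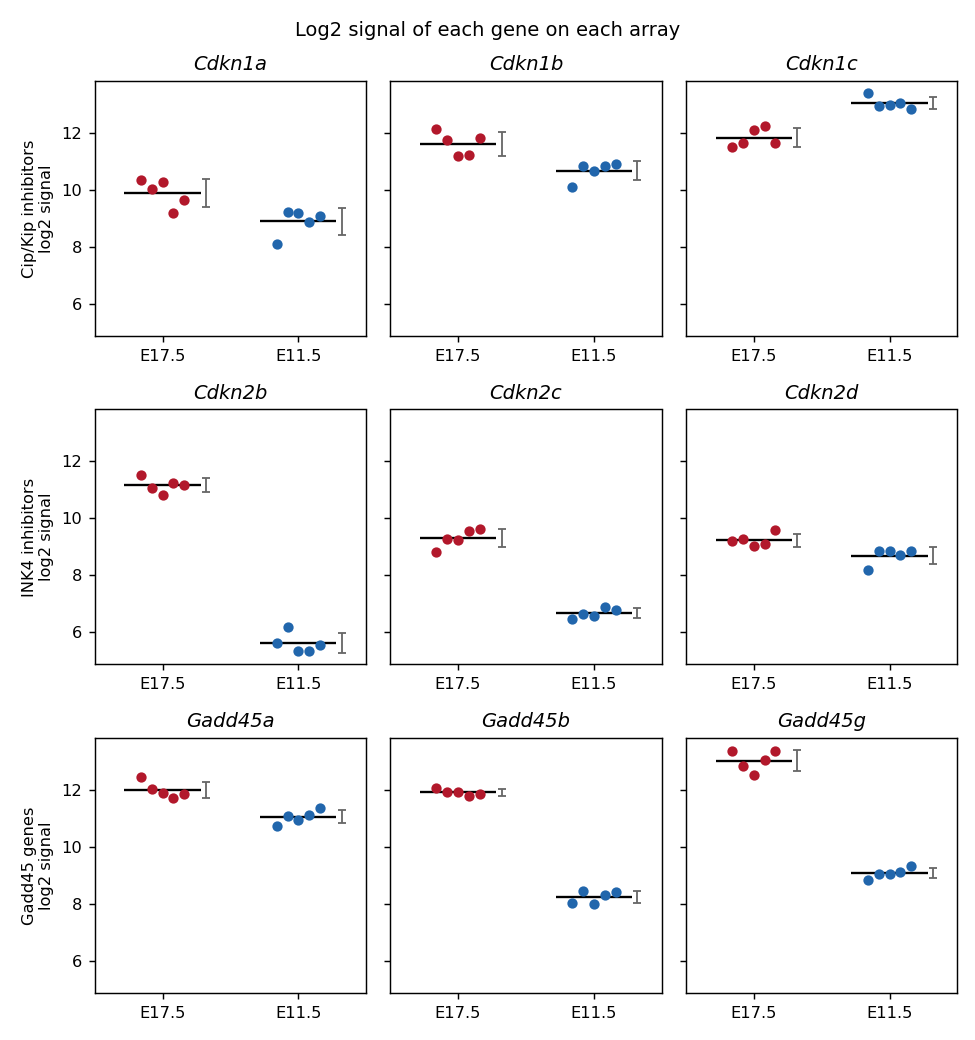
Log2 signal (y axis) of each of the 9 genes on the 5 arrays of E17.5 (red) and the 5 arrays of E11.5 (blue), with a bar at the mean and grey whiskers of 1 SD beside the points. The E17.5 arrays lie far above the E11.5 arrays for *Cdkn2b*, *Cdkn2c*, *Gadd45b* and *Gadd45g*, close above them for *Cdkn1b*, *Cdkn2d* and *Gadd45a*, and below them for *Cdkn1c*, and for *Cdkn1a* the stages overlap.

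The promoters of the genes with the 3 largest rises are shown, with that of *Gadd45a* beside them because it is the member of the Gadd45 family that rose least. They are the 250 bases before the RefSeq start on GRCm38.p6, 5′ to 3′ on the strand of the gene, and capitals mark matches to 6 common promoter motifs on either strand, a choice made after the sequences had been read.
Cdkn2b promoter, chr4:89311033-89311282 (- strand): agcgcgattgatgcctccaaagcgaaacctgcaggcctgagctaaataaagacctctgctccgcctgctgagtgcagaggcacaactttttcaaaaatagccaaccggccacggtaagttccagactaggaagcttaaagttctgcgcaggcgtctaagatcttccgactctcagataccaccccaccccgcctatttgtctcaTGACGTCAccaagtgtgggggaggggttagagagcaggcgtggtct
Gadd45g promoter, chr13:51846425-51846674 (+ strand): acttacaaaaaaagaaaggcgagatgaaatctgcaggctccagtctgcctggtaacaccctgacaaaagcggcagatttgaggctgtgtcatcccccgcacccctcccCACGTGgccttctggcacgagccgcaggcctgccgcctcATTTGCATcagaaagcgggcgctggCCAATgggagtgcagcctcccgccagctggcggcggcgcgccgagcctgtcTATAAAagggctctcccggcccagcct
Gadd45b promoter, chr10:80929841-80930090 (+ strand): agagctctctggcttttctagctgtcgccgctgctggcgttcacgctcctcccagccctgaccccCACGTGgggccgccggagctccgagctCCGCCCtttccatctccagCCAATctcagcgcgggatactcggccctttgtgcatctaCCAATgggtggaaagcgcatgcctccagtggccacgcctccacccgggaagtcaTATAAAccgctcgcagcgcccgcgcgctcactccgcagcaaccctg
Gadd45a promoter, chr6:67037408-67037657 (- strand): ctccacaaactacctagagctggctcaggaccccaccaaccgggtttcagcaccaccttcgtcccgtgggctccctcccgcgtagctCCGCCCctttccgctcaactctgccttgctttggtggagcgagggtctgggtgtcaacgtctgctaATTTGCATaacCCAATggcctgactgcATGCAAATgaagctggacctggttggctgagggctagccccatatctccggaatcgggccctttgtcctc

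RefSeq windows matched 8 of the 9 genes, all but *Cdkn1c*, with 2 starts each for *Cdkn1a* and *Cdkn2c*. The *Cdkn2b* window held the cyclic AMP response element TGACGTCA at -46 to -39 relative to the start, and the windows of the other 7 matched genes did not hold it. This motif stood in 1.55% of all 32851 windows of the same length. Both *Gadd45g* and *Gadd45b* held an E-box, CACGTG (6.02% of all windows), and a TATA box, TATAAA (12.4%), and no window of the other 6 matched genes held either. The TATA box lay at -27 to -22 in *Gadd45g* and at -46 to -41 in *Gadd45b*. A CCAAT box, CCAAT (33.8% of all windows), stood in all Gadd45 windows and in those of *Cdkn1b* and *Cdkn2d*. The octamer ATTTGCAT (1.6% of all windows) stood in *Gadd45g* and, in both orientations, in *Gadd45a*. The GC box GGGCGG (32.7% of all windows) stood in at least 1 window of 6 of the 8 genes, *Cdkn2b* and *Gadd45g* being the exceptions. For *Cdkn1a* and *Cdkn2c* only 1 of the 2 windows held it, so this count by gene is not directly comparable with the share of windows. No matches of different motifs overlapped in these windows. A match describes the letters and is not evidence of a bound factor.

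Among the INK4 genes, *Cdkn2b*, which encodes p15 and is known from human keratinocytes as a gene induced by TGF-β, showed the largest change. Its log2 signal was 11.53, 11.07, 10.83, 11.25 and 11.16 on E17.5 replicates 1 to 5, against 5.63, 6.19, 5.35, 5.35 and 5.56 on E11.5 replicates 1 to 5. The lowest E17.5 array stood 4.64 above the highest E11.5 array. The mean was 11.17 ± 0.26 (SD, n = 5) at E17.5 and 5.62 ± 0.34 (SD, n = 5) at E11.5, a log2 fold change of 5.55 with a standard error of 0.17 (adjusted p = 4.2e-11 from limma). By size of rise it was 107th of 17813 genes. The E11.5 signals lay below the medians of those arrays (7.01 to 7.14), and whether they stood above background is not known, since no detection calls were at hand.

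*Cdkn2c* encodes p18, another inhibitor of CDK4 and CDK6. Its log2 signal was 8.83, 9.27, 9.25, 9.54 and 9.64 on E17.5 replicates 1 to 5, against 6.47, 6.65, 6.56, 6.88 and 6.78 on E11.5 replicates 1 to 5. All E17.5 arrays were above all E11.5 arrays, by at least 1.95, and the E11.5 signals again lay below the array medians. *Cdkn2c* rose by 2.64 on the log2 scale with a standard error of 0.15 (adjusted p = 8.3e-09 from limma).

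*Cdkn2d*, which encodes p19INK4d, changed least of the 9 genes. Its log2 signal was 9.19, 9.26, 9.03, 9.08 and 9.60 on E17.5 replicates 1 to 5, against 8.19, 8.86, 8.85, 8.71 and 8.84 on E11.5 replicates 1 to 5. The stages did not overlap, but the gap between them was only 0.17. The log2 fold change was 0.54 with a standard error of 0.15 (adjusted p = 0.0068 from limma), and it was 0.04 after quantile normalisation (adjusted p = 0.86), so that the rise depended on the scaling of the arrays.

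Among the Cip/Kip genes, *Cdkn1a* and *Cdkn1b* rose by similar amounts and *Cdkn1c* fell, although after quantile normalisation *Cdkn1a* and *Cdkn1b* no longer passed. *Cdkn1a* encodes p21, a target of p53 that also responds to other signals. Its log2 signal was 10.33, 10.01, 10.27, 9.17 and 9.64 on E17.5 replicates 1 to 5, against 8.10, 9.20, 9.19, 8.86 and 9.10 on E11.5 replicates 1 to 5. This was the only one of the 9 genes whose stages overlapped, since E17.5 replicate 4 lay just below E11.5 replicates 2 and 3. The mean was 9.89 ± 0.48 (SD, n = 5) at E17.5 and 8.89 ± 0.46 (SD, n = 5) at E11.5. The log2 fold change was 1.00 with a 95% interval of 0.43 to 1.56 (adjusted p = 0.0044 from limma), and 0.45 after quantile normalisation (adjusted p = 0.16).

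*Cdkn1b* encodes p27, which is controlled to a large degree by protein breakdown. Its log2 signal was 12.13, 11.75, 11.18, 11.21 and 11.82 on E17.5 replicates 1 to 5, against 10.11, 10.85, 10.66, 10.82 and 10.92 on E11.5 replicates 1 to 5. The E17.5 arrays stood above the E11.5 arrays by at least 0.26. It rose by 0.94 on the log2 scale, with a 95% interval of 0.49 to 1.40 (adjusted p = 0.0015 from limma), and by 0.37 after quantile normalisation (adjusted p = 0.13).

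*Cdkn1c* encodes p57 and is an imprinted gene, expressed mainly from the maternal allele. Its log2 signal was 11.49, 11.65, 12.11, 12.25 and 11.66 on E17.5 replicates 1 to 5, against 13.42, 12.96, 12.98, 13.04 and 12.83 on E11.5 replicates 1 to 5. Every E17.5 array was below every E11.5 array, by at least 0.58. The mean was 11.83 ± 0.33 (SD, n = 5) at E17.5 and 13.05 ± 0.22 (SD, n = 5) at E11.5. The log2 fold change was -1.22 with a standard error of 0.16 (adjusted p = 2.5e-05 from limma), and it was -1.35 after median centring and -1.67 after quantile normalisation.

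Among the Gadd45 genes all 3 were higher, under each scaling, but by unequal amounts. *Gadd45g*, known in mice for a part in gonadal sex determination through p38, had a log2 signal of 13.35, 12.84, 12.53, 13.05 and 13.38 on E17.5 replicates 1 to 5, against 8.84, 9.05, 9.05, 9.13 and 9.33 on E11.5 replicates 1 to 5. The stages were apart by at least 3.19. Its log2 fold change was 3.95 with a standard error of 0.16 (adjusted p = 4.9e-10 from limma). *Gadd45b*, known as an early response gene of myeloid differentiation and of TGF-β and NF-κB signalling, had a log2 signal of 12.07, 11.94, 11.91, 11.77 and 11.86 on E17.5 replicates 1 to 5, against 8.03, 8.43, 8.01, 8.32 and 8.40 on E11.5 replicates 1 to 5. The stages were apart by at least 3.34, and this was the tightest of the 9 genes at E17.5, with an SD of 0.11. Its log2 fold change was 3.67 with a standard error of 0.11 (adjusted p = 2.9e-11 from limma).

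*Gadd45a*, the p53-responsive member, had a log2 signal of 12.46, 12.02, 11.90, 11.70 and 11.87 on E17.5 replicates 1 to 5, against 10.74, 11.09, 10.95, 11.11 and 11.38 on E11.5 replicates 1 to 5. The gap between the stages was 0.32. Its log2 fold change was 0.93 with a standard error of 0.15 (adjusted p = 0.00015 from limma), and 0.39 after quantile normalisation (adjusted p = 0.03).

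Across the 9 genes, the arrays of the stages did not overlap for 7 that were higher and 1 that was lower, where this held for 32.3% and 26.3% of all genes. The upper quartile of the signals was 10 to 10.04 on E17.5 arrays, against 9.42 to 9.46 on E11.5 arrays, and quantile normalisation removes that difference. After it, 5 of the 9 genes were higher and 1 was lower, against 31.9% and 39% of all genes. After median centring, which shifted the median log2 fold change of all genes by -0.13, leaving it at -0.10, the counts stayed at 8 higher and 1 lower, against 33.2% and 36.9% of all genes. No direction of the 9 genes turned under either scaling.

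**Figure D2:**
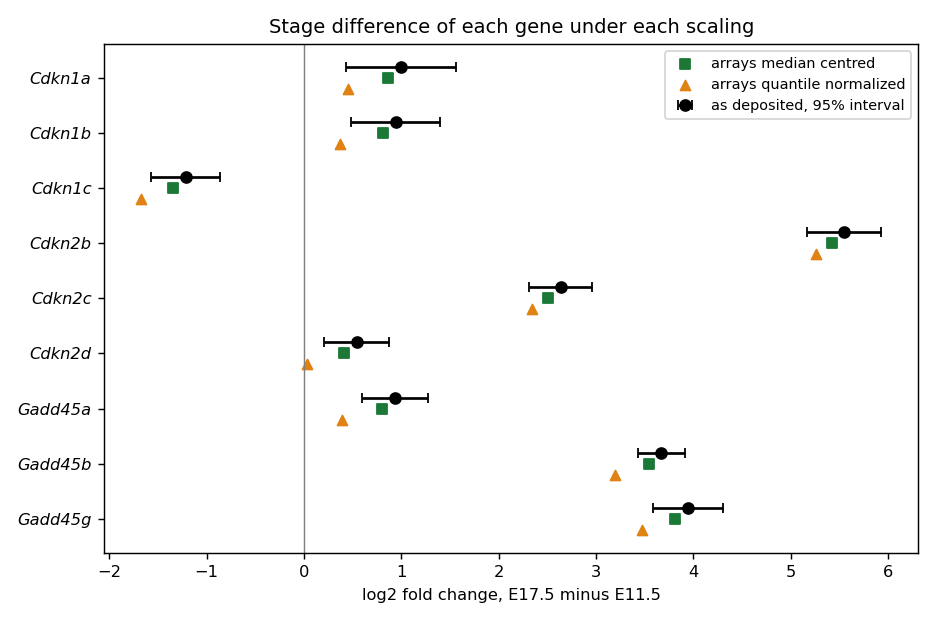
Log2 fold change, E17.5 minus E11.5 (x axis), of each of the 9 genes with the values as deposited (black circles, with 95% intervals from limma), after median centring (green squares) and after quantile normalisation (orange triangles). The value of *Cdkn2d* reaches 0.04 after quantile normalisation, while *Cdkn2b* stays at 5.26, *Gadd45g* at 3.47, *Gadd45b* at 3.20 and *Cdkn1c* at -1.67.

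The members of a family were then set against each other within each array, where a shift of the whole array cancels. A difference between the stages that depends on brightness, such as that of the upper quartiles, does not cancel in this way. Of 9 pairs, 7 changed their difference between the stages by more than the spread between arrays (exact two-sided permutation test, p = 0.0079, the smallest that 5 against 5 arrays can give, adjusted p = 0.01 over 9 pairs). In the INK4 family, *Cdkn2b* gained 5.01 on the log2 scale over *Cdkn2d* and 2.92 over *Cdkn2c*, and *Cdkn2c* gained 2.09 over *Cdkn2d*. The difference *Cdkn2b* minus *Cdkn2d* was 1.93 ± 0.32 at E17.5 and -3.08 ± 0.43 at E11.5 (SD, n = 5 each).

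In the Cip/Kip family, *Cdkn1a* gained 2.21 and *Cdkn1b* 2.16 over *Cdkn1c*. The difference *Cdkn1b* minus *Cdkn1c* was -0.21 ± 0.73 at E17.5 and -2.37 ± 0.54 at E11.5 (SD, n = 5 each). Between *Cdkn1a* and *Cdkn1b* the change was 0.06, the difference spanning -2.18 to -0.91 on E17.5 arrays, against -2.01 to -1.47 on E11.5 arrays (exact permutation test, p = 0.86, adjusted p = 0.86). In the Gadd45 family, *Gadd45g* gained 3.01 and *Gadd45b* 2.74 over *Gadd45a*. Between *Gadd45g* and *Gadd45b* the change was 0.28, the difference spanning 0.62 to 1.51 on E17.5 arrays, against 0.62 to 1.05 on E11.5 arrays (exact permutation test, p = 0.13, adjusted p = 0.15). Neither of these 2 pairs is thereby shown to have changed alike.

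**Figure D3:**
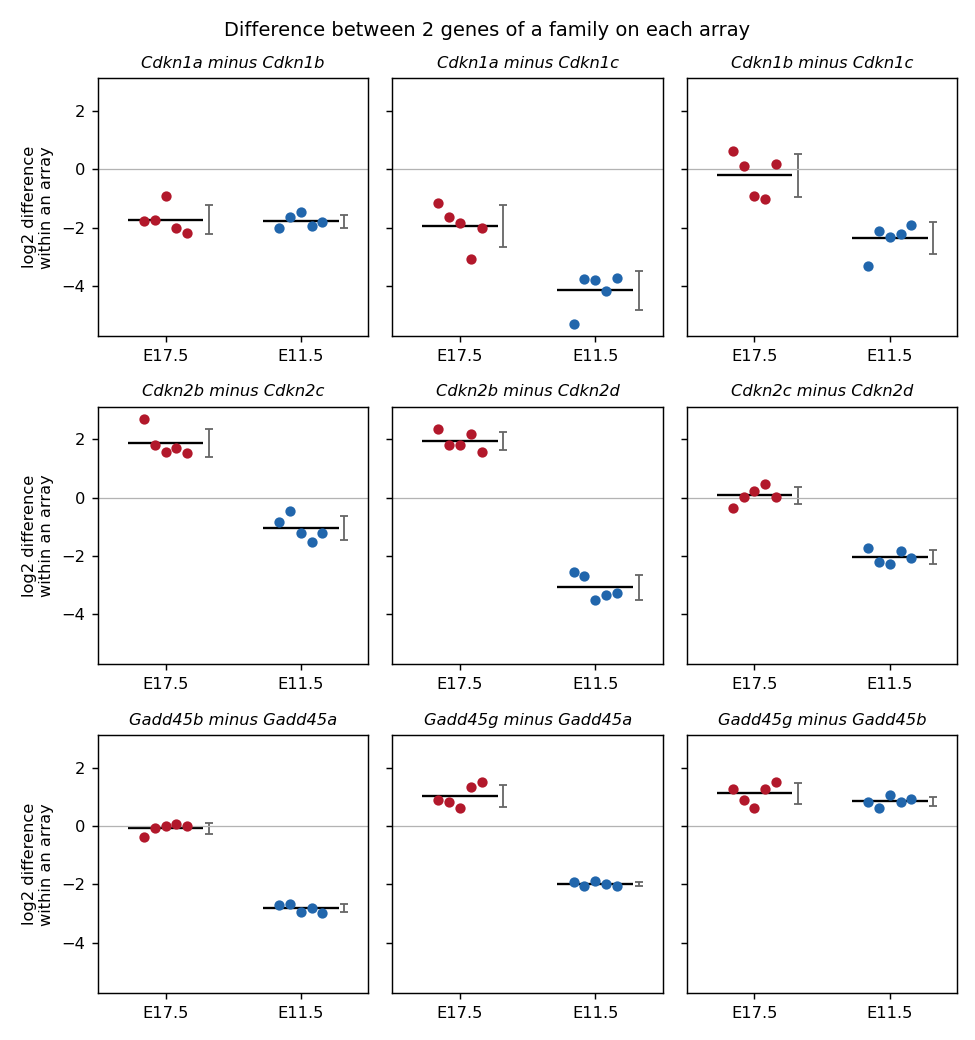
Log2 signal of one gene minus that of another gene of its family on the same array (y axis), for the 5 arrays of E17.5 (red) and of E11.5 (blue), with a bar at the mean and grey whiskers of 1 SD. The stages separate in 7 panels and overlap for *Cdkn1a* minus *Cdkn1b* and for *Gadd45g* minus *Gadd45b*, and only the shift between stages can be read, since the size of a difference also holds the unequal brightness of 2 probe sets.

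Genes of the same pathway are given by lists that were chosen for their known roles. Among all genes, 36.9% were called higher and 31.5% lower as deposited. These shares were 31.9% and 39% after quantile normalisation, and 33.2% and 36.9% after median centring. The counts of each list are to be read beside them. Of the other CDK inhibitor genes, *Cdkn2a*, which encodes p16 and p19ARF, had a log2 signal of 5.39 ± 0.07 at E17.5 and 5.11 ± 0.17 at E11.5 (SD, n = 5 each). These signals lay below the array medians at both stages. The log2 fold change was 0.28 (adjusted p = 0.019 from limma), and it did not pass after median centring. The log2 fold change of *Cdkn3*, a phosphatase that acts on CDK2, was -0.39 (adjusted p = 0.1 from limma), and it passed as lower under both other scalings (-0.98 after quantile normalisation).

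Of 12 genes for the CDKs and cyclins that the inhibitors bind, 4 were higher and 8 lower, their median change on the log2 scale being -0.79. The counts were the same under both other scalings. The D-type cyclins moved apart. *Ccnd1* had a log2 fold change of -4.41 and *Ccnd2*, named after its values were seen, one of -2.50, while *Ccnd3* rose by 3.19 on the log2 scale. *Ccne1*, a cyclin partner of CDK2, changed by -2.81. Among the kinases, *Cdk2* rose by 3.55 and *Cdk6* by 1.27, and *Cdk4*, named after its values were seen, changed by -0.63. *Ccna1* was the other gene that rose, by 1.64. Of 13 pocket protein and E2F genes, which act below these kinases, 6 were higher and 6 lower under each scaling, and their median was 0.08 as deposited, -0.06 after median centring and -0.27 after quantile normalisation. *Rb1*, which encodes the retinoblastoma protein, rose by 3.14 and the E2F partner *Tfdp2* by 2.15, while *E2f3* changed by -3.86 and *E2f6* by -2.92.

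Of 12 genes for the breakdown or stabilisation of p27 and p21, 1 was higher and 7 were lower, with a median of -0.48. After median centring 10 were lower (median -0.61), and after quantile normalisation 11 were lower (median -0.94). *Dtl*, which brings p21 to a ubiquitin ligase, changed by -3.65, and *Skp2*, which does the same for p27, by -2.26. The deubiquitinase genes *Usp11* and *Usp10* changed by -1.44 and -0.75. *Cul4b*, a scaffold gene of such ligases, rose by 0.64, but by 0.05 after quantile normalisation, when it no longer passed. Of 29 proliferation genes, 6 were higher and 17 were lower, with a median of -0.86. After quantile normalisation 5 were higher and 21 lower (median -1.21). The log2 fold change was -3.76 for *Top2a*, -3.57 for *Rrm2*, -3.15 for *Cdca8* and -3.05 for *Mcm7*. The mean signal of *Top2a* at E17.5 was 4.75, below the medians of those arrays (7.14 to 7.23). Named after their values were seen, *Mki67* changed by -0.29 and was not called, and *Tpx2* and *Cdt1*, among the 6 higher, rose by 2.60 and 2.15. *Mki67* passed as lower after quantile normalisation (-0.74) but not after median centring (-0.42).

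*Cdkn1a* and *Gadd45a* are known targets of p53. Of 22 other genes of that pathway, 14 were higher and 4 were lower, with a median of 1.72. Among the higher ones, *Btg2* (2.45) also stands in the list of immediate early genes below, so the lists are not fully separate. *Plk2* rose by 5.28, *Mdm2*, the ubiquitin ligase of p53, by 4.78, *Rrm2b* by 4.65 and *Fas* by 3.79. The 4 lower genes were *Polk*, *Eda2r*, *Zmat3* and *Phlda3*, at -1.49, -1.04, -0.98 and -0.65, and 6 were lower under each other scaling. *Trp53* itself was not analysed here. Of 12 other growth arrest and stress genes, 7 were higher and *Gas2*, *Tob2* and *Gas7* were lower (-2.06, -0.46 and -0.31), with a median of 1.40. *Ndrg1* rose by 5.60, *Gas6* by 4.74, the antiproliferative gene *Tob1* by 4.32 and *Ppp1r15a*, also called Gadd34, by 3.77.

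Of 11 kinase genes downstream of the GADD45 proteins, 1 was higher and 7 were lower, with a median of -0.67. Under each other scaling 1 was higher and 9 were lower. *Mapk14*, which encodes the main p38 kinase, rose by 4.42, while *Mapk12*, another p38 gene, changed by -3.56, the p38 activator *Map2k6* by -2.33 and the JNK gene *Mapk9* by -1.21. *Map3k4*, the direct partner of GADD45 proteins and named after its values were seen, changed by -0.28 (adjusted p = 0.096 from limma), and it passed as lower under both other scalings (-0.84 after quantile normalisation). Of 24 genes of TGF-β, FoxO and Myc regulation, which act on *Cdkn2b*, *Cdkn1a* and *Cdkn1b*, 12 were higher and 10 lower, with a median of 0.12. After quantile normalisation 7 were higher and 12 lower, against 31.9% and 39% of all genes, and the median was -0.29. *Tgfb1* rose by 4.28, *Foxo3* by 3.99 and *Klf6* by 3.87, while the receptor gene *Tgfbr1* changed by -4.67.

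Of 17 imprinted growth genes, the class to which *Cdkn1c* belongs, 9 were higher and 6 were lower, with a median of 0.49, and 7 were higher and 8 lower after quantile normalisation. *Meg3* rose by 4.79, while *Igf2* changed by -4.37, *Grb10* by -3.52 and *Gnas* by -3.11. The neighbours of *Cdkn1c* in its imprinted domain, named after their values were seen, differed in direction. *Kcnq1ot1*, the noncoding RNA of the domain, changed by -1.63 and *Slc22a18* by 2.68. *Phlda2* changed by 0.49 (adjusted p = 0.025 from limma), and it did not pass after median centring (0.36) or quantile normalisation (0.15).

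**Figure D4:**
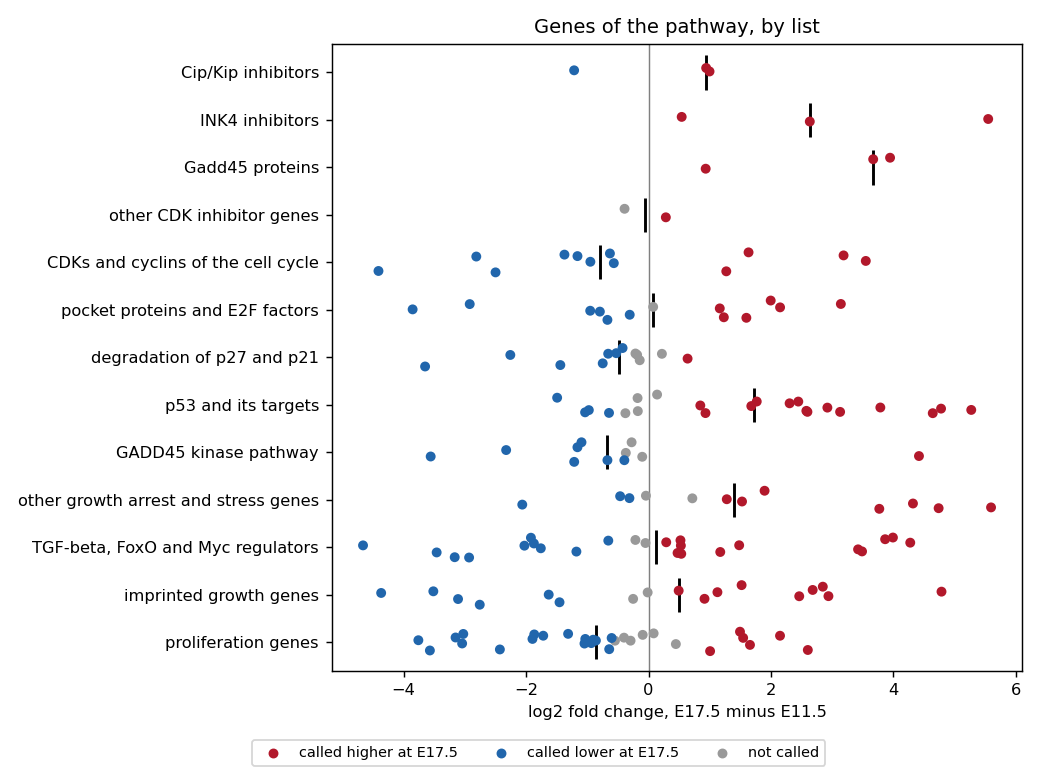
Log2 fold change, E17.5 minus E11.5 (x axis), of each measured gene of 13 lists (rows), with a black bar at the median of the list and colour for the call in limma. The p53 list and the growth arrest list lie mostly to the right (medians 1.72 and 1.40), and the proliferation list, the CDK and cyclin list and the GADD45 kinase list mostly to the left (medians -0.86, -0.79 and -0.67).

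Within the E17.5 arrays, *Cdkn1a* was highest on replicates 1, 2 and 3 and lowest on replicates 4 (9.17) and 5 (9.64). *Gadd45a* and *Gadd45b* were also lowest on replicates 4 and 5. *Cdkn2c* ran the other way, lowest on replicate 1 (8.83) and highest on replicates 4 (9.54) and 5 (9.64). *Cdkn1c* was highest on replicate 4 (12.25), so the 9 genes did not share 1 order. The mean log2 signal of the proliferation list on replicates 1 to 5 was 9.65, 10.10, 10.08, 10.96 and 10.73, with replicates 4 and 5 highest, and on E11.5 arrays it was 11.01 to 11.09. The macrophage and monocyte markers had means of 9.43, 9.43, 9.42, 8.60 and 8.83 on the same E17.5 replicates, with replicates 4 and 5 lowest. A reading over 5 arrays made after the values were seen carries no test, and what links these values was not tested. Among the E11.5 arrays, replicate 1 was the lowest for 6 of the 9 genes, *Cdkn1a*, *Cdkn1b*, *Cdkn2c*, *Cdkn2d*, *Gadd45a* and *Gadd45g*, and had the highest mean of the mesenchymal markers of that stage (8.43). It was the highest for *Cdkn1c* (13.42). How many of all genes were lowest on this array was not counted, so the 6 may share a trait of the whole array. Without E11.5 replicate 1, 8 of the 9 genes were still higher and 1 lower, and the median of their changes was 0.86. Leaving out single arrays gave 6356 to 6596 higher and 5384 to 5616 lower of all 17813 genes.

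Immediate early genes, which are known to respond to the handling of cells, and macrophage and endothelial markers were mostly higher at E17.5 too. Immediate early genes numbered 29, of which 25 passed as higher, and their mean log2 signal was 10.71 to 10.92 on E17.5 arrays, against 7.63 to 7.74 on E11.5 arrays. *Fosb* changed by 8.37 and *Egr2* by 7.36, and the 3 lower genes were *Jund*, *Nr4a2* and *Nr4a3* (-3.49, -1.36 and -0.75). The macrophage list held 24 genes, 21 of them higher and 1, *Cx3cr1*, lower, and its mean ran from 8.60 to 9.43 on E17.5 arrays, against 5.45 to 6.18 on E11.5 arrays. *Lyz2* changed by 7.53 and *Cd53* by 6.47, while *Itgam* (0.18) and *C1qb* (0.17) were not called. Which cells of the E17.5 samples gave the signal of *Lyz2* or of any other listed gene was not tested. The endothelial list held 18 genes, 16 of them higher, and its mean ran from 8.70 to 10.56 on E17.5 arrays, against 5.53 to 6.46 on E11.5 arrays. *Lyve1* changed by 6.16 and *Emcn* by 5.99. Of 18 mesenchymal markers, 6 were higher and 6 lower, and some of these changes were large. *Acta2* rose by 4.32 and *Col1a2* by 2.77, while *Tbx5*, named after its values were seen, changed by -2.07. The mesenchymal list had means of 7.77 to 8.70 on E17.5 arrays, against 7.37 to 8.43 on E11.5 arrays. Erythroid markers were mostly brighter at E11.5, with 1 of 9 (*Alas2*) higher at E17.5 and 5 lower, among them *Hbb-y* (-7.84), and means of 5.64 to 6.29 on E17.5 arrays, against 7.47 to 8.51 on E11.5 arrays. Pan-epithelial markers, 18 in number, had means of 12.16 to 12.36 on E17.5 arrays, against 11.59 to 11.79 on E11.5 arrays, and 10 were higher and 5 lower as deposited, but 7 higher and 7 lower after quantile normalisation. Of 10 lung tip markers, *Sftpc*, *Id2* and *Bmp4* were higher and *Shh*, *Etv4*, *Etv5*, *Foxa2* and *Foxa1* were lower. *Id2* is the locus that drove the label by which the E17.5 cells were sorted. *Bmp4* (0.29) passed as lower after quantile normalisation (-0.28) and did not pass after median centring (0.16). What part handling and other cell types had in the differences of the 9 genes was not tested.

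**Figure D5:**
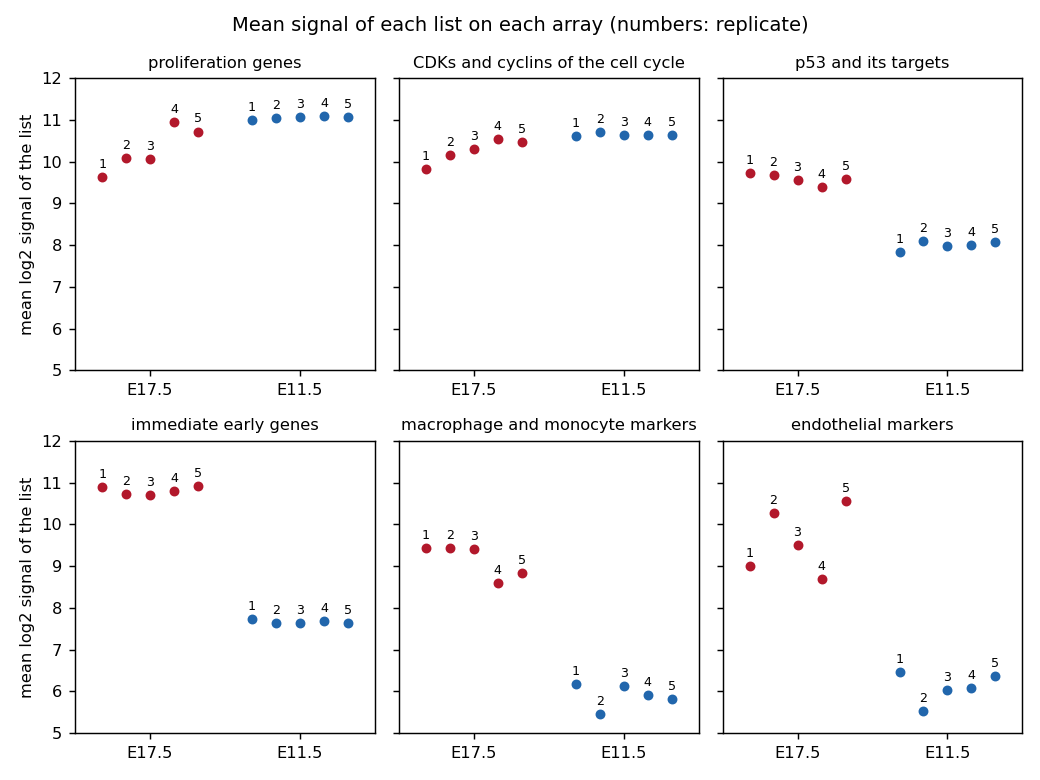
Mean log2 signal of the genes of 6 lists (y axis) on each array of E17.5 (red) and of E11.5 (blue), with the replicate number above each point. The proliferation list runs from 9.65 to 10.96 on the E17.5 arrays and from 11.01 to 11.09 on the E11.5 arrays, and the immediate early, macrophage and endothelial lists are higher on every E17.5 array.

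The genes most like the leading member of each family were found by the root mean square difference between log2 profiles over the 10 arrays, each profile centred on its own mean. For *Cdkn2b* these were *Prcd*, *Msln* and *Lrrk2*, with differences of 0.21, 0.21 and 0.24 and log2 fold changes of 5.80, 5.48 and 5.31. For *Gadd45g* they were *F11r*, *Dcps* and *Ebna1bp2*, with differences of 0.14, 0.15 and 0.16 and log2 fold changes of 3.99, 4.07 and 3.70. For *Cdkn1c* they were *Uspl1*, *Prkd1* and *Fkbp3*, with differences of 0.08, 0.11 and 0.12 and log2 fold changes of -1.24, -1.14 and -1.30. The likeness is mostly that of the difference between the stages and carries no test.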

How the data were processed

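RNA from E17.5 cells and E11.5 tips was amplified and labelled with NuGEN kits by the authors, hybridised to Affymetrix mouse arrays and analysed with Bioconductor in R. What the authors deposited are log2 values for 21204 probe sets, ranging over 2.47 to 15.03, in 1 column per array. That the scale is log2 was inferred from this range. No source used here states the background correction, the normalisation or how the probe sets of the table were selected. The 17981 probe sets with 1 gene in the platform annotation gave 17813 genes, and the brightest probe set was used for the 167 genes with several. Stages were compared with limma 3.58.1 (lmFit and eBayes) in R 4.3.3 on the values as deposited, E17.5 minus E11.5, with Benjamini-Hochberg adjustment over all genes, and calls were made where the adjusted p was below 0.05. The limma step was tested on simulated data. Differences within arrays were tested with scipy 1.17.1 by exact permutation. Figures were drawn with matplotlib 3.10.9 in Python 3.11.15. Precision is limited by the number of arrays.

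The members and lists were chosen with earlier results of these data known. Genes outside the 9 were named by a rule: up to 4 with the largest change among those called in each pathway list, all where 5 or fewer were called in a direction, and the 3 most like the leading member of each family, with exceptions marked in the text. Arrays are labelled as biological replicates. No source used here states whether they came from separate litters, so p-values measure only the spread between these samples, which may be technical. Alternatives were quantile normalisation, median centring, other probe sets, dropping dim genes, blocking on replicate number, weighting arrays, a trended and robust prior variance, a null of a 2-fold change, arithmetic means, and omitting single arrays.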

Additional observations from a re-analysis of the deposited data

Results flagged for a closer look

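Within each stage the most extreme array was set against its nearest neighbour, and a gap wider than 0.71 of the whole range was noted. This happened in 11 of 224 sets of 5 arrays, where a rate of 1 in 20 would give 11. The sets share genes, and several of the gaps fell on E11.5 replicate 1. The total therefore says nothing about whether a single array stood apart. For *Cdkn2d*, E11.5 replicate 1 read 8.19 on the log2 scale (the nearest array read 8.71), and its stage difference without that array was 0.42. On the same array *Cdkn1a* minus *Cdkn1c* was -5.32 (nearest -4.18) and the mean of the Cip/Kip genes was 10.54 (nearest 10.91). Also on E11.5 replicate 1, *Map2k6* was 11.82 (nearest 11.98), *F11r* 7.91 (nearest 8.11) and *Ebna1bp2* 7.62 (nearest 7.92). On E17.5 replicate 1, *Cdkn2b* minus *Cdkn2c* was 2.71 (nearest 1.80) and the mean of the erythroid markers was 6.29 (nearest 5.68). The mean of the CDKs and cyclins was 10.72 on E11.5 replicate 2 (nearest 10.65), *Dtl* was 9.17 on E11.5 replicate 5 (nearest 8.70) and *Polk* was 6.28 on E11.5 replicate 4 (nearest 6.57).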

How the results depend on the processing

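Quantile normalisation gave 0.45 for *Cdkn1a*, 0.37 for *Cdkn1b* and 0.036 for *Cdkn2d*, none of which passed. It left 0 Cip/Kip genes higher, 0 higher and 11 lower in the degradation list, 7 higher in the TGF-β, FoxO and Myc list, 1 lower among the other CDK inhibitor genes and 1 lower among the endothelial markers. Median centring gave 0 higher and 1 lower among the other CDK inhibitor genes and 1 lower endothelial marker. Against a null of a 2-fold change, *Cdkn1a* (1.00), *Cdkn1b* (0.94), *Cdkn1c* (-1.22), *Cdkn2d* (0.54) and *Gadd45a* (0.93) no longer passed, and 3437 genes were higher and 2045 lower. Without dim genes, fewer were tested and 3404 were lower. Several alternatives leave the log2 fold change of these genes as it is, so a direction could not turn under them. These were dropping dim genes, the replicate block, the trended and robust prior variance and the null of a 2-fold change. Other probe sets could not move it either, as each of the 9 genes has 1 in the deposited table. No direction of the 9 genes turned under the scalings, array weights, arithmetic means or omission of single arrays, which can move it. Without probe sets whose suffix marks several transcripts, *Cdkn1a* and *Gadd45g* had no value.

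Replicate numbers did not pair the samples: the correlation of same-numbered deviations was -0.29, -0.18, -0.01, -0.10 and 0.07 for numbers 1 to 5, and no sample correlated best with its own number. The replicate block gave 6385 higher and 5349 lower genes in all, against 6568 and 5609 without it. With the replicate block, *Cdkn1a* had an adjusted p of 0.01 (limma), all 9 genes passed, and 0 of the other CDK inhibitor genes were higher. Leaving out 1 array at a time, all 9 genes passed each time, with *Cdkn1a* at 0.80 to 1.18 and *Cdkn2d* at 0.42 to 0.59. Among the other CDK inhibitor genes, 0 to 1 were higher (0 without E11.5 replicate 2 or 4) and 0 to 1 lower (1 without E17.5 replicate 4). In the degradation list 1 to 2 were higher (2 without E11.5 replicate 1), and 0 to 1 endothelial markers were lower (1 without E17.5 replicate 2 or 5). The cause of these shifts was not tested. With 5 arrays per stage and no detection calls, low signals such as those of *Cdkn2b* and *Cdkn2c* at E11.5 cannot be placed against background. The same holds for the low signals of *Top2a*, *Dtl*, *Mapk12*, *Tgfbr1* and *Gnas* at E17.5.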
